A study of Sus scrofa with 6 samples.

Results

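The nuclear pore and nuclear transport genes of pig 4-cell embryos were taken from the series' expression table as the protein-coding genes whose symbols name a numbered nucleoporin (NUP), a karyopherin (KPNA or KPNB), an importin (IPO), an exportin (XPO) or a transportin (TNPO), together with CSE1L, RAN, NDC1, AAAS, SEH1L and TPR. The rule gave 51 genes of 30376 in the table, with 7 importin alphas, 11 import carriers, 7 exportins and the GTPase RAN, and the rest nucleoporins or their anchors. Each of the 6 libraries held poly(A) RNA of embryos grown from pig oocytes that were activated electrically with 2 pulses of 120 V, and no sperm is named in the labels. Control embryos (3 libraries) were cultured for 4 days at 38.5 °C and high-temperature embryos (3 libraries) for 4 days at 41.5 °C, in the same PZM-5 medium with serum albumin under 5% CO2. The labels give the genotype as WT for controls and as HT for the heated embryos, and name no genetic change. About 300 samples of 4-cell embryos went into lysis, without a statement of whether per library or in all, and the labels do not state that replicates are separate cultures. A p-value here therefore covers the variation among the libraries at hand, possibly only technical. The series asks how heat affects the activation of the embryonic genome, which in the pig falls mainly at the 4-cell stage.

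The nuclear pore is a ring-shaped channel through the nuclear envelope, built from an outer ring (the Y complex), an inner ring, a membrane ring, a central channel lined with phenylalanine-glycine repeats, and filaments on the cytoplasmic and nuclear sides. Importin alpha binds proteins that carry a classical nuclear localization signal and is itself carried in by importin beta (KPNB1), while other importins, transportins and exportins bind their cargo directly. RAN loaded with GTP releases cargo from importins in the nucleus and holds it on exportins, which sets the direction of transport. Early embryos inherit much of this machinery from the oocyte and need it to bring transcription factors and chromatin proteins into the new nuclei.

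The libraries held 28114005 to 30079385 counts, and the 51 genes together took 0.525% to 0.737% of them. All 11 markers of oocytes and early embryos were present in every library, at a summed 9215 to 12930 CPM (counts scaled to a common library size, with TMM, the trimmed mean of M-values). Of 10 cumulus and granulosa cell markers 5 had no count, FSHR, AMH, INHA, FOXL2 and CYP11A1, and the list summed to 2.55 to 6.501 CPM. TNFAIP6 (40 to 91 counts), STAR (15 to 63), CYP19A1 (7 to 14) and PTX3 (3 to 10) had counts in every library, and HSD3B1 had 0 to 11. Blood and stromal markers summed to 15.7 to 33.4 CPM, of which most was VIM.

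RAN had by far the highest transcript level, and its 7 exportins and 11 import carriers all lay far below it. On the FPKM scale, which divides by gene length and so allows genes to be compared, 4 members had a mean over the 6 libraries of 100 or more, 16 lay from 10 to under 100, 21 from 1 to under 10 and 10 under 1. RAN was at 870 ± 340 FPKM in controls and 806 ± 280 FPKM at high temperature (SD, n = 3). NUP35, an inner ring nucleoporin, came next with a mean over all libraries of 260.0 FPKM, then the importin alpha genes KPNA2 (180.5 FPKM), KPNA7 (156 FPKM) and KPNA3 (91.0 FPKM). The 6-library ranges of NUP35, KPNA2, KPNA7 and KPNA3 overlapped from each to the next. The order of NUP35, KPNA2 and KPNA7 is not fixed by these data. KPNA3 (81.6 to 102 FPKM) lay without overlap below KPNA2 (114 to 233 FPKM) and NUP35 (153 to 447 FPKM). The gaps from RAN to NUP35, from KPNA3 to NUP37 and from NUP37 to NUP133 were larger than the spread, with no overlap, and of the 50 neighbouring pairs in the whole order only 6 were separated in this way.

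**Figure D1:**
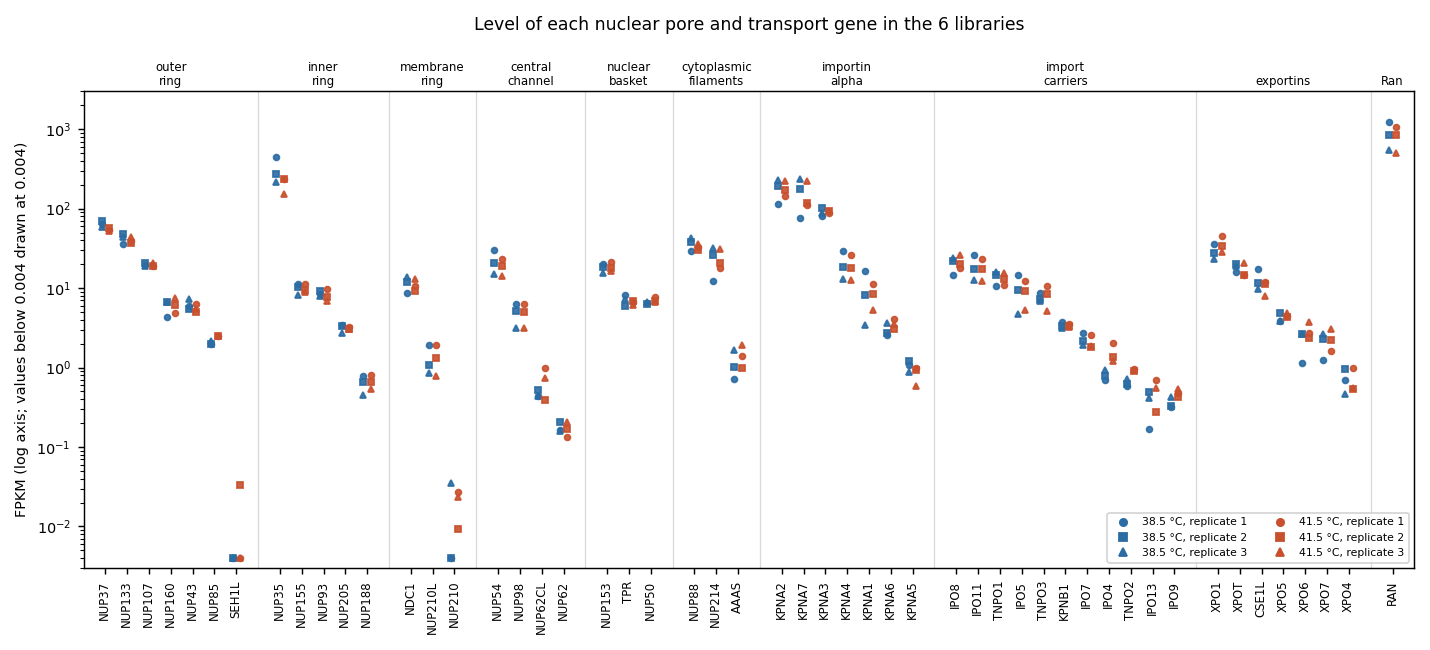
FPKM (log axis) of each of the 51 genes in the 3 libraries at 38.5 °C (blue) and the 3 at 41.5 °C (red), with one symbol per replicate number and genes grouped by role. RAN lay above all others, and the 2 colours overlapped for most genes while levels within a role differed widely.

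Genes for parts of one complex differed in transcript level. In the outer ring NUP37 (59.1 FPKM) was 26.1-fold above NUP85 (2.27 FPKM), with NUP133 at 41.2, NUP107 at 19.6, NUP160 at 6.03 and NUP43 at 5.92 FPKM. In the inner ring NUP35 stood 402-fold above NUP188 (0.646 FPKM), and the other members lay between, NUP155 at 9.94, NUP93 at 8.35 and NUP205 at 3.13 FPKM. The membrane ring had NDC1, an anchor that spans the envelope, at 11.2 FPKM, and its testis-type member NUP210L at 1.30 FPKM. The nuclear basket was the most even, with NUP153 at 18.4, TPR, the filament that forms the basket, at 6.86 and NUP50 at 6.81 FPKM. On the cytoplasmic side NUP88 and its partner NUP214 were at 34.9 and 23.5 FPKM and AAAS (aladin) at 1.28 FPKM. In the central channel NUP54 was at 20.4 FPKM, NUP98 at 4.87 and NUP62CL at 0.586 FPKM.

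The filter on low counts removed 3 members, all of them genes for known pore proteins. SEH1L, of the outer ring, had 0 counts in 5 libraries and 4 in high-temperature replicate 2. Its only gene model in the table (chromosome 1, 145071719 to 145075627, Sscrofa11.1) lies inside the span of TJP1, a tight junction gene with 839 to 2391 counts per library. NUP62, of the central channel, had 8 to 12 counts in every library and overlaps IL4I1 and ATF5 on chromosome 6. NUP210, of the membrane ring, had 0 to 8 counts. How overlapping genes were counted is unknown here, so the low values of SEH1L and NUP62 are uncertain. One further symbol that fits the pattern, NUP58, is entered as a long noncoding RNA and so is no member; it had 550 to 1019 counts.

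Importin alpha transcripts came mainly from 3 of the 7 genes. KPNA7, the importin alpha type known from oocytes and cleavage embryos, was at 75.5, 176 and 237 FPKM in control replicates 1, 2 and 3 and at 109.7, 117 and 220 FPKM in the high-temperature replicates. KPNA2, the importin alpha of dividing cells, was at 114, 195 and 233 FPKM in controls and 145, 172 and 224 FPKM at high temperature. KPNA3 held more even values, 90.9 ± 10.3 and 91.1 ± 2.79 FPKM (SD, n = 3). KPNA7 was below KPNA2 in 5 of 6 libraries, with a ratio of 0.661 to 1.02. Of the summed importin alpha FPKM, KPNA2 made 38.1 ± 2.30% in controls and 39.9 ± 2.02% at high temperature, and KPNA7 made 33.1 ± 8.84% and 32.1 ± 6.38%. KPNA6 and KPNA5, the importin alphas most similar to KPNA1, made 0.544% to 1.05% and 0.104% to 0.337%. In each of these shares the replicates of the 2 temperatures overlapped, and no test was made on them.

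**Figure D2:**
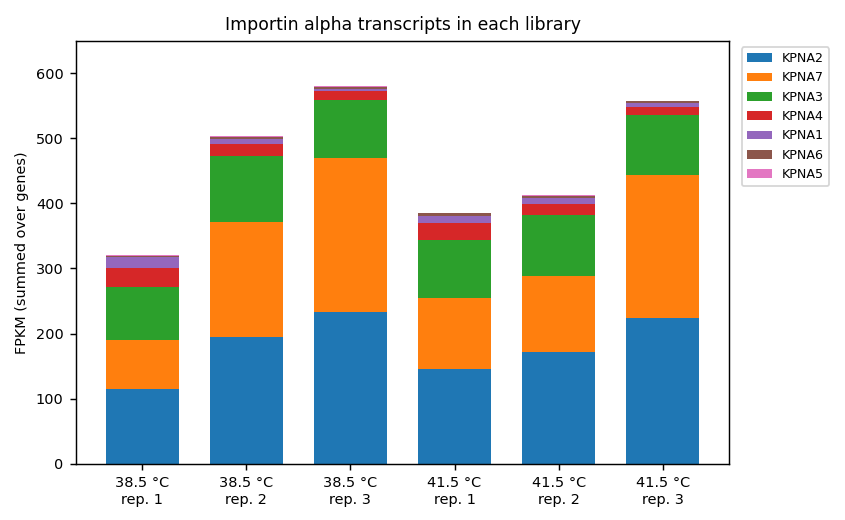
Stacked FPKM of the 7 importin alpha genes in each library at 38.5 °C and 41.5 °C. KPNA2 and KPNA7 together made 59.1% of the bar in control replicate 1 and 81.0% in control replicate 3, and 66.2% and 79.6% in the high-temperature libraries of the same numbers.

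KPNB1, the importin beta that carries importin alpha, was at only 3.43 FPKM, so that the KPNA2 level was 30.1 to 73.5 times that of KPNB1. Among the carriers that bind cargo without importin alpha, IPO8, which carries SMAD and Argonaute proteins, led at 20.8 FPKM, followed by IPO11 (18.1), TNPO1 (13.4), which imports hnRNP proteins, IPO5 (9.24) and TNPO3 (7.84), the carrier of SR splicing factors. IPO4, TNPO2, IPO13 and IPO9 were at 1.17, 0.789, 0.433 and 0.419 FPKM. Among exportins XPO1, the general exporter of proteins with a leucine-rich signal, led at 32.2 FPKM, with XPOT, the exporter of tRNA, at 17.5 and CSE1L, which returns importin alpha to the cytoplasm, at 11.6 FPKM. XPO5, XPO6, XPO7 and XPO4 were at 4.35, 2.54, 2.17 and 0.695 FPKM.

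Culture at 41.5 °C gave no called change in any nuclear pore or transport gene. Of the 48 members tested 0 passed an adjusted p of 0.05 in edgeR's quasi-likelihood test, where 0.0% of the 16056 genes tested passed. DESeq2 called 0 members and 0.0374% of all genes, and edgeR with the replicate number as a block called 0 members and 0.0187% of all genes. At an unadjusted p below 0.05 there were 2 members in edgeR, where 1.85% of all genes lay, and 2 in DESeq2, IPO4 and TNPO2 in both. The share of all genes below 0.05 in DESeq2 was not taken, and both tools used the same counts. The DESeq2 count is therefore not read as a result about the members. A 4-fold difference in either direction lay outside the 95% interval for all 48 tested members and for 14745 of the 16056 genes tested. At 10 CPM or more it lay outside for all 37 members and for 6233 of 6310 genes. A 2-fold difference lay outside for 31 of the 48 members (64.6%, against 49.7% of all genes tested). Among genes of at least 10 CPM the 2-fold difference lay outside for 70.3% of the members and 77.8% of all genes. The smallest adjusted p of a member in the edgeR test was 0.999923.

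The fitted log2 fold changes, high temperature against control, lay between -0.72 (NUP35) and 0.86 (IPO4), with 33 members below 0, 15 above and a median of -0.12. Of all genes tested 52.5% lay below 0, with a median of -0.02. Among genes of at least 10 CPM the shares were nearer, 29 of 37 members (78.4%) against 66.0% of 6310 genes. The direction of the median depended on 2 libraries. It was 0.05 without control replicate 1 (29 members above 0, 20 below) and 0.01 without high-temperature replicate 3 (24 each way). With library totals alone as the scaling the median was -0.02 and 21 members were higher and 27 lower, while the median of all genes moved to 0.08.

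The medians by role lay between -0.23 (RAN alone) and 0.01, while single genes within a role differed more. In the outer ring 5 of 6 genes lay below 0 (median -0.16), and NUP85, at 0.19 with an interval of -0.30 to 0.69, was the exception. All 5 inner ring genes lay below 0 (median -0.12), with NUP35 at -0.72, NUP93 at -0.17, NUP205 at -0.12 and NUP188 at -0.03. The medians were -0.10 in the membrane ring, -0.14 in the central channel, -0.07 in the basket and -0.09 on the cytoplasmic filaments. Of the importin alpha genes 5 of 7 lay below 0 (median -0.20). Import carriers were split, 5 above and 6 below 0, from -0.25 to 0.86 (IPO4), and exportins 4 above and 3 below with a median of 0.01, among them XPO6, a carrier of actin, at 0.39 (interval -0.32 to 1.10). None of these differences passed the test.

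**Figure D3:**
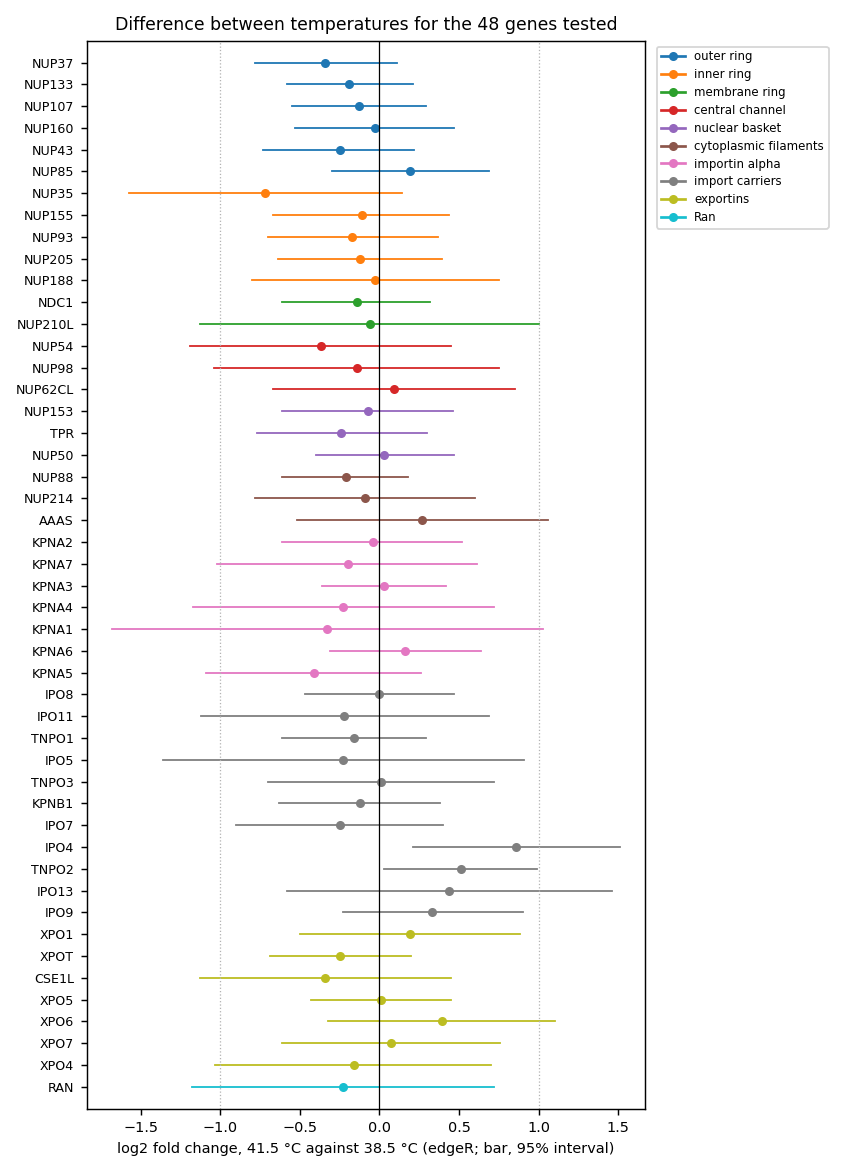
Log2 fold change (41.5 °C against 38.5 °C) of the 48 genes tested, with the 95% interval as a bar and colours for roles; dotted lines mark a 2-fold difference. The intervals of IPO4 and TNPO2 lay above 0 before any correction for the number of genes tested, and those of the other genes crossed 0.

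In 5 members (10.4%) the libraries of the 2 temperatures did not overlap, where 7.71% of all genes tested were like this. Among genes of at least 10 CPM it was 2 of 37 members (5.41%) and 6.67% of all genes. The 3 that were higher at 41.5 °C were import carriers of low abundance, where 3.66% of all genes were higher without overlap. At 10 CPM or more, 0 of 37 members and 75 of 6310 genes were higher in this way. Over all levels 588 of 16056 genes were, so most genes with this pattern were below 10 CPM, like these 3. The share among genes below 10 CPM was not taken, and the pattern is not read as particular to import carriers. IPO4, an importin for histones and ribosomal proteins, was at 3.46, 3.31 and 3.79 CPM in control replicates 1 to 3 and at 8.59, 5.87 and 4.77 CPM in the high-temperature replicates. All 3 heated libraries lay above the controls, high-temperature replicate 1 farthest. The fitted log2 fold change was 0.86 (standard error 0.28, 95% interval 0.21 to 1.51; edgeR, unadjusted p = 0.0154, adjusted p = 0.999923), and 0.59 without high-temperature replicate 1. IPO4 (chromosome 7, 75109844 to 75118739) overlaps the end of TM9SF1, and the 2 genes summed to 26.9 ± 1.89 CPM at 38.5 °C and 29.9 ± 2.49 CPM at 41.5 °C (SD, n = 3).

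TNPO2, a near relative of TNPO1, was at 5.77, 5.72 and 6.14 CPM at 38.5 °C and 8.83, 8.34 and 7.95 CPM at 41.5 °C, 150 to 185 counts against 240 to 258. The groups were apart and each was tight (log2 fold change 0.51, standard error 0.21, 95% interval 0.03 to 0.99; edgeR, unadjusted p = 0.0393, adjusted p = 0.999923). IPO9, another carrier of histones, was at 2.19, 1.93 and 2.42 CPM at 38.5 °C and 2.88, 2.54 and 2.85 CPM at 41.5 °C, with a fitted value of 0.33 and an interval that held 0.

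The 2 members that were lower without overlap were nucleoporins with small differences, where 4.05% of all genes were lower without overlap. At 10 CPM or more, 2 of 37 members and 346 of 6310 genes were lower in this way. NUP88 was at 135, 145 and 151 CPM at 38.5 °C and 124, 119 and 129 CPM at 41.5 °C, a log2 fold change of -0.21 (interval -0.61 to 0.18). NUP133 was at 190.1, 213 and 192 CPM at 38.5 °C and 175, 167 and 181 CPM at 41.5 °C, a log2 fold change of -0.19 (interval -0.58 to 0.21). NUP88 overlaps RABEP1, which had 3048 to 5123 counts, and the 2 genes summed to 289 ± 32.9 CPM at 38.5 °C and 280.3 ± 23.95 CPM at 41.5 °C.

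The largest fitted decrease belonged to NUP35, and its size depended mostly on 1 library. NUP35 was at 923, 476 and 366 CPM in control replicates 1 to 3 and at 417, 410 and 247 CPM at 41.5 °C. Control replicate 1 stood far above the rest, while the other controls overlapped the heated libraries. The log2 fold change was -0.72 (interval -1.57 to 0.14; edgeR, unadjusted p = 0.0891), and -0.23 without control replicate 1. NUP37 of the outer ring was at 168, 158 and 127 CPM at 38.5 °C and 122, 129 and 109 CPM at 41.5 °C (log2 fold change -0.34, interval -0.78 to 0.11), and it overlaps PARPBP. NUP54 of the central channel was at 272, 159.6 and 111 CPM in the control replicates and 176, 145 and 99.6 CPM in the heated ones, with the temperatures overlapping. It had a fitted value of -0.37 (interval -1.19 to 0.45), and 0.05 without control replicate 1. NUP54 overlaps ART3, which had 5389 to 7746 counts. TPR was at 77.6, 47.8 and 57.1 CPM in the control replicates and 54.0, 55.6 and 45.3 CPM in the heated ones. Control replicate 1 again stood above the rest. TPR had a fitted value of -0.24 (interval -0.77 to 0.30), which was -0.02 without control replicate 1, -0.39 without control replicate 2 and -0.12 when high-temperature replicate 3 was left out. XPOT was at 80.6, 86.7 and 77.1 CPM in the control replicates and 63.1, 61.8 and 80.9 CPM in the heated ones, of which replicate 3 lay among the controls (log2 fold change -0.25, interval -0.69 to 0.20).

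RAN and the central carriers likewise did not pass. RAN was at 4038, 2391 and 1460 CPM in control replicates 1 to 3 and at 2991, 2403 and 1311 CPM in the high-temperature replicates. Its range within each temperature was much wider than the distance between the means, and the fitted log2 fold change of -0.23 had an interval of -1.18 to 0.72. With control replicate 1 left out it was 0.21, and with high-temperature replicate 3 left out 0.07. KPNA7 had a log2 fold change of -0.20 (interval -1.02 to 0.61), KPNA2 one of -0.04 (interval -0.61 to 0.52) and KPNB1 one of -0.12 (interval -0.63 to 0.38). KPNB1 was at 29.6, 22.4 and 20.1 CPM in the control replicates and 23.8, 22.4 and 20.1 CPM in the heated ones, with control replicate 1 above the rest. The signs of these 3 were not stable: KPNA7 was at 0.13 and KPNA2 at 0.12 without control replicate 3, KPNB1 at 0.06 without control replicate 1, and KPNA2 at 0.04 with library totals as the scaling. KPNA5, the rarest importin alpha, was at 7.19, 6.79 and 4.71 CPM in the control replicates and 5.48, 5.25 and 3.33 CPM in the heated ones, with overlap. Its log2 fold change of -0.41 (interval -1.09 to 0.26) was -0.19 when high-temperature replicate 3 was left out. KPNA5, with 102 to 197 counts a library, overlaps ZUFSP, which had 1116 to 1537. In bulk embryo RNA, fewer cells with a transcript and less of it per cell cannot be told apart.

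The exportins XPO1 and CSE1L had fitted values of opposite sign. XPO1 was at 220, 142 and 120 CPM at 38.5 °C and 239, 174 and 138 CPM at 41.5 °C, a log2 fold change of 0.19 (interval -0.50 to 0.88). CSE1L was at 78.2, 44.0 and 33.4 CPM at 38.5 °C and 46.1, 46.6 and 29.95 CPM at 41.5 °C, a log2 fold change of -0.34 (interval -1.13 to 0.45). The sign turned for CSE1L without control replicate 1 (0.08) and for XPO1 without high-temperature replicate 1 (-0.05). The ratio of XPO1 to CSE1L in FPKM was 2.05, 2.33 and 2.39 in controls and 3.78, 3.03 and 3.60 at high temperature. In CPM it was 2.81, 3.22 and 3.60 in controls and 5.19, 3.73 and 4.59 at high temperature, so the groups were apart on both scales. This was 1 of 4 ratios between members that were computed, all chosen after the values were seen, and it was not tested.

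The spread between libraries of one temperature was larger than the difference between temperatures for many members, and it often took the same order in both groups. In 26 of the 48 members (54.2%) the library that was highest and the one that was lowest bore the same numbers in both groups, where 44.3% of all genes tested did so. The reverse, with the extremes exchanged, held for 2 members, where 6.43% of all genes did so. Among genes of at least 10 CPM, the shared extremes held for 62.2% of the members and 60.2% of all genes. In 19 of the 48 members replicate 1 was highest and replicate 3 lowest at both temperatures, against 20.0% of all genes. They were RAN, all 5 inner ring genes, NUP54, NUP98, NUP153, NUP210L, KPNA1, KPNA4, KPNA5, KPNB1, IPO5, IPO7, IPO11, TNPO3 and XPO1. In 6 of the 48 members, KPNA2, KPNA7, NUP214, IPO8, TNPO1 and XPO7, replicate 3 was highest and replicate 1 lowest at both temperatures, against 16.9% of all genes. Neither pattern was counted among genes of at least 10 CPM, so these shares are not matched for level.

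KPNA1, an importin alpha expressed in most tissues, had the widest spread of the members, 37.7, 15.9 and 6.37 CPM at 38.5 °C and 21.9, 16.4 and 9.48 CPM at 41.5 °C. Its highest control library was 5.91-fold above its lowest, and the ratio was 2.31 at high temperature. KPNA1, with 192 to 979 counts a library, overlaps a long noncoding RNA with 307 to 604 counts, so these values are uncertain. IPO5, a carrier of ribosomal proteins and histones, was at 61.6, 33.96 and 16.6 CPM at 38.5 °C and 44.8, 33.2 and 17.7 CPM at 41.5 °C. KPNA4 was at 143, 77.0 and 52.2 CPM at 38.5 °C and 109, 73.6 and 50.3 CPM at 41.5 °C. KPNA7 ran the other way within both groups, at 174, 309 and 426 CPM at 38.5 °C and 211, 221 and 359 CPM at 41.5 °C. The importin alpha genes KPNA1 and KPNA4 thus made 14.3% of the summed importin alpha FPKM in control replicate 1 and 2.86% in control replicate 3, and 9.72% and 3.19% in high-temperature replicates 1 and 3.

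Some genes from different parts of the pore were also highest in replicate 1 and lowest in replicate 3 of both groups, and others were not. NUP98, a channel nucleoporin that also binds genes in the nucleus, was at 54.4, 37.3 and 22.0 CPM in the control replicates and at 45.6, 36.5 and 20.8 CPM in the heated ones. NUP155 of the inner ring was at 65.5, 52.2 and 39.5 CPM and then 55.8, 47.98 and 41.5 CPM, and NUP153 of the basket at 157, 122 and 100.8 CPM and then 140.1, 119 and 102 CPM. Replicate 3 was the lowest in both groups for each of these 3 genes, and the groups overlapped. NUP214 of the cytoplasmic side had its lowest values in replicate 1, with 137, 248 and 289 CPM in controls and 171, 205 and 258 CPM in the heated embryos. NUP210L of the membrane ring was at 14.4, 6.86 and 5.28 CPM in the control replicates and 12.2, 8.44 and 4.61 CPM in the heated ones, highest in replicate 1 of each. NDC1 was instead lowest in replicate 1 of the controls, at 61.8, 72.8 and 81.6 CPM, and lowest in replicate 2 of the heated embryos, at 65.1, 56.6 and 73.9 CPM.

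Import carriers showed both orders. IPO11, which imports ubiquitin-conjugating enzymes, was at 136, 76.2 and 52.3 CPM in controls and 103, 74.9 and 49.8 CPM in the heated embryos. IPO8 was at 98.9, 127 and 129 CPM in controls and 104, 114 and 137 CPM in the heated embryos, lowest in replicate 1 of each.

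Several members hardly varied. KPNA3 was at 295, 321 and 274 CPM at 38.5 °C and 300.3, 303 and 303 CPM at 41.5 °C, and NUP107 at 81.3, 73.5 and 65.0 CPM and 67.1, 66.7 and 67.1 CPM. The within-group SD of log2 CPM was 0.08 for KPNA3 and NUP133, 0.07 for NUP88 and 0.06 for TNPO2, and 0.97 for KPNA1, 0.81 for IPO5 and 0.68 for RAN. Its median over the members was 0.30, and 0.33 over all genes tested. The outer ring had a median of 0.14 over its 6 tested genes, and 1 of the 6 kept the same extreme libraries in both groups. The inner ring had a median of 0.30 and all 5 genes did.

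**Figure D4:**
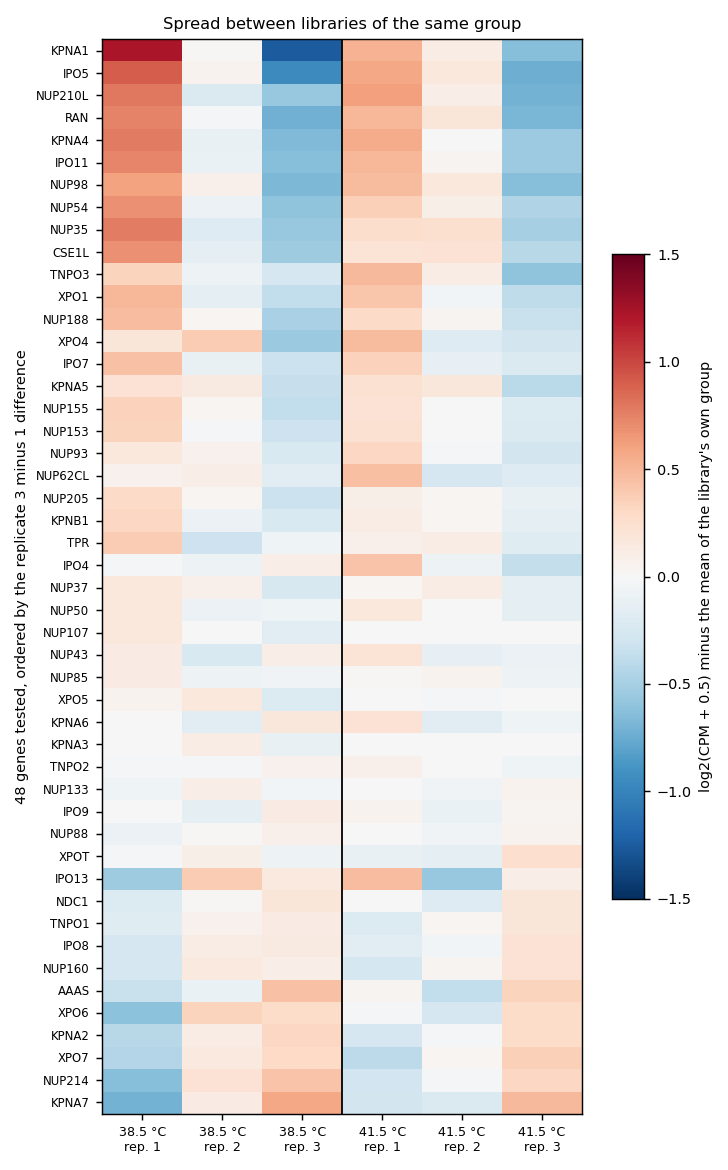
Heat map of log2(CPM + 0.5) of the 48 genes tested minus the mean of the library's own temperature group, with replicates 1 to 3 of each temperature side by side. KPNA1, IPO5 and RAN at the top were above the group mean in replicate 1 and below it in replicate 3 at both temperatures, and KPNA7 and NUP214 at the bottom were the reverse.

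Other measures of the libraries differed as well, some by replicate number and some by temperature. The summed oocyte and embryo markers were lowest in replicate 1 of each group (10470 and 9215 CPM). The nuclear gene row for 18S ribosomal RNA was at 105, 347 and 554 CPM at 38.5 °C and 218, 422 and 968 CPM at 41.5 °C. The mitochondrial share of counts was 23.6%, 21.0% and 21.5% in controls and 26.7%, 24.9% and 23.8% at high temperature, without overlap between the temperatures (two-sided exact permutation p = 0.1, the smallest that 3 against 3 libraries allow). Genes with counts numbered 19875, 20284 and 20428 in controls and 20838, 20567 and 20537 at high temperature, also without overlap (two-sided exact permutation p = 0.1). The TMM factor of control replicate 1 was 0.865, the lowest of the 6, and that of high-temperature replicate 3 was 1.089, the highest. The part of these in the members' values was not tested, and the labels do not say what the replicate number marks.

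Genes of the same pathway outside the rule, a list of regulators of RAN, other pore proteins, mRNA export factors and nuclear envelope proteins, also showed no called change. Of 65 listed genes with counts or zeros on file, 64 were tested and 0 passed, with 25 higher, 39 lower, a median log2 fold change of -0.07 and 0 at an unadjusted p below 0.05 in edgeR. DESeq2 called 0 as well. In 5 (7.81%) the groups did not overlap, a share close to the 7.71% of all genes tested. Regulators of RAN were far less abundant as transcripts than RAN: RCC1, the exchange factor that loads GTP on chromatin, was at 0.656 FPKM and RANGAP1, which triggers GTP hydrolysis in the cytoplasm, at 0.199 FPKM. RANBP1, a co-factor of that step, was at 77.3 FPKM and NUTF2, which brings RAN back into the nucleus, at 73.5 FPKM. The fitted values were -0.06 for RCC1, 0.34 for RANGAP1, -0.14 for RANBP1 and -0.33 for NUTF2, each with an interval that held 0. When 1 library was left out NUTF2 ranged from -0.51 (control replicate 1 or high-temperature replicate 3) to -0.13 (high-temperature replicate 1), and RANGAP1, with 12 to 26 counts a library, was at 0.14 without control replicate 3. RANBP2, the large filament protein, was listed but had no protein-coding entry under that symbol, so it could not be analysed here.

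The 5 genes of that list with the smallest unadjusted p were ENY2, ALYREF, NMD3, LMNA and MAD1L1. ENY2, of the mRNA export complex at the pore, was at 787, 843 and 840.4 CPM at 38.5 °C and 489, 662 and 712 CPM at 41.5 °C, all 3 heated libraries below the controls (log2 fold change -0.41, interval -0.86 to 0.05; edgeR, unadjusted p = 0.0734), and -0.26 without high-temperature replicate 1. ALYREF, which links splicing with mRNA export, was at 89.98, 100.9 and 92.7 CPM at 38.5 °C and 144, 102 and 115 CPM at 41.5 °C, without overlap (log2 fold change 0.35, interval -0.11 to 0.80), and at 0.20 on the log2 scale without high-temperature replicate 1. NMD3, the adaptor for export of the large ribosomal subunit through XPO1, was at 268, 124 and 73.7 CPM at 38.5 °C and 113, 105 and 55.8 CPM at 41.5 °C. Its log2 fold change was -0.77 (interval -1.86 to 0.32), and -0.12 without control replicate 1. LMNA, the A-type lamin, was at 0.809 ± 0.279 CPM at 38.5 °C and 1.21 ± 0.140 CPM at 41.5 °C (SD, n = 3), and MAD1L1, a checkpoint protein that docks at the basket, at 2.59 ± 0.262 and 3.35 ± 0.549 CPM. Their log2 fold changes were 0.57 for LMNA, which had 14 to 40 counts a library, and 0.37 for MAD1L1. They were 0.35 for LMNA without control replicate 1 and 0.23 for MAD1L1 without high-temperature replicate 1.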

How the data were processed

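The authors deposited raw counts, whole numbers for each gene, per the file headers. Beside these the authors deposited FPKM and TPM, per the file headers, and the per-sample tables also hold a per-base coverage deposited by the authors, which was not used. Trimmomatic 0.38, StringTie 2.1.3b, HISAT2 2.1.0, Bowtie2, HISAT and the build Sscrofa11.1 appear, without roles, in the submitters' processing notes; what counted the reads is not given there. Per the labels' protocols, poly(A) RNA was captured and amplified with SMART-Seq v4, a method without strand marking. Of the series table's values, 99.4% to 99.5% of FPKM equalled those of the sample's own table within 1e-05.

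Counts were tested over all genes with edgeR 4.0.16 in R 4.3.3 (quasi-likelihood, TMM, default filter by expression, 16056 genes kept, group as the single term, Benjamini-Hochberg at 0.05). Alternatives used DESeq2 1.42.0 and limma 3.58.1. The edgeR steps were run on simulated counts. For the temperature comparison these held no order of replicates shared between genes, so they do not show how the test behaves with one. Positions and overlaps came from RefSeq by Entrez ID; all 51 members matched, and 18 overlap another counted gene. Members, role classes and lists were chosen with earlier results of these data known. Values per library were named for RAN, KPNB1, KPNA7, KPNA2, XPO1, CSE1L and TPR, the 2 most abundant members of each class, the 5 with the smallest p and those whose groups did not overlap; others were added for completeness after their values were seen. Intervals on counts measure the spread between these libraries.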

Additional observations from a re-analysis of the deposited data

How the results depend on the processing

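No member and no other pathway gene was called under any of the 14 other settings. The members' median log2 fold change of -0.12 was 0.05 at its highest (without control replicate 1) and -0.21 at its lowest (without control replicate 3), and in the other settings it moved by less than 0.16, the SD of the median between libraries. The count of members without overlap, 5, was 7 to 13 when 1 library was left out, where 12.7% to 18.5% of all genes tested did not overlap. Signs turned for values near 0. With library totals alone the log2 fold changes were 0.08 for IPO8, 0.04 for KPNA2, 0.04 for NUP153, 0.06 for NUP210L and 0.07 for RCC1. On log2(FPKM + 1), log2(FPKM + 0.1) and log2(TPM + 1) they were 0.09, 0.10 and 0.09 for IPO8, 0.04, 0.04 and 0.03 for KPNA2, 0.03, 0.04 and 0.03 for NUP153, 0.03, 0.05 and 0.04 for NUP210L and 0.05, 0.06 and 0.05 for NUP214. With the replicate block RCC1 was at 0.01.

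With 1 library left out the log2 fold change ranged from -0.53 to 0.21 for RAN, -0.48 to 0.13 for KPNA7, -0.23 to 0.12 for KPNA2, -0.24 to 0.06 for KPNB1, -0.05 to 0.49 for XPO1, -0.59 to 0.08 for CSE1L, -0.50 to 0.24 for IPO11, -0.12 to 0.08 for IPO8, -0.63 to 0.05 for NUP54, -0.43 to 0.21 for NUP98, -0.22 to 0.11 for NUP153, -0.29 to 0.08 for NUP155, -0.44 to 0.47 for NUP210L, -0.35 to 0.13 for NUP214, -0.34 to 0.14 for RANBP1 and -0.46 to 0.48 for RCC1. With the same sign throughout it ranged from -0.39 to -0.02 for TPR, -0.58 to -0.19 for KPNA5, -0.97 to -0.23 for NUP35, -0.51 to -0.13 for NUTF2 and 0.14 to 0.49 for RANGAP1. The cause was not tested. On counts IPO4 stayed between 0.59 and 1.07 and TNPO2 between 0.47 and 0.60. IPO4 was at 0.48 on log2(FPKM + 1), 0.84 on log2(FPKM + 0.1) and 0.56 on log2(TPM + 1). TNPO2 was at 0.28 on log2(TPM + 1), the only one of these 3 scales on which it was tested. Adding 1 shrinks the differences of genes with levels this low, so those values are not comparable with the count-based ones.

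The replicate number did not meet the criterion for pairing: deviations from the group means correlated at 0.52, 0.01 and 0.59 for numbers 1, 2 and 3, and control replicate 2 did not correlate best with its own number. With the replicate block 6 members had an unadjusted p below 0.05 in edgeR, against 2 without it. The share of all genes below 0.05 with the block was not taken, so this rise is not read as particular to the members. The smallest adjusted p of a member with the block was 0.372 (NUP35, edgeR). Members with few counts, such as IPO13 and IPO9, and the 3 under the filter are limited by depth.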
